A study of Mus musculus with 12 samples.

Results

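The genes described here are the keratins of the inner root sheath of the hair follicle together with trichohyalin and the enzyme that modifies it. They were taken by name as Krt25, Krt26, Krt27, Krt28, Krt71, Krt72, Krt73, Krt75, Tchh and Padi3, by a rule in which no measured value enters. The rule was drawn up with earlier results of these data known, so comparisons of the 10 genes with all genes are not independent of the data. All 10 were present among the 23282 entries of the count tables.

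Dorsal skin of male wild-type C57BL/6J mice was profiled by 3′ mRNA sequencing in 2 groups. All mice were 5 weeks old at the start and received 0.5% 2,4-dinitrochlorobenzene (DNCB), a hapten that produces lesions like those of atopic dermatitis (AD), on the back 3 times a week for 6 weeks. The AD group (5 libraries) was fed normal chow, and the HF + AD group (7 libraries, called AD+OB in the sample labels, for obese) was fed a diet with 60 kcal% fat for 10 weeks, of which 4 preceded the first DNCB application. The comparison asked which transcripts differ in DNCB-treated skin when the mice are also fed the high-fat diet. DNCB was common to both groups, so neither is an untreated control, and skin without DNCB was not analysed here.

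The inner root sheath is the layer that surrounds the growing hair shaft, moulds it and is lost before the shaft leaves the skin. Its keratins pair a type I protein (Krt25 to Krt28) with a type II protein (Krt71 to Krt73) to form filaments, and trichohyalin (Tchh) fills the space between them. Peptidylarginine deiminase 3 (Padi3) converts arginines of trichohyalin to citrulline, after which transglutaminases such as Tgm3 cross-link the protein to the filaments. Krt75 marks the companion layer, which lies between the inner and the outer root sheath. These genes are active in growing follicles, and variants in several of them change hair shape in mice and humans.

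The libraries held 9746937 to 11688979 counts in AD and 10726845 to 13462434 counts in HF + AD. More genes were detected in every HF + AD library (15522 to 16677) than in any AD library (13100 to 15063), so that diet group and number of detected genes cannot be told apart. AD 1 and AD 2 had the fewest detected genes, 13258 and 13100. Calls of named genes that are lost without these libraries are given beside each gene, with some exceptions. For Krt34, Krt39, Krt84, Krt86, Krt5, Krt14, Inhba, Hhip, Awat1 and the genes named under Other observations, results without these libraries are not given. A missing note beside those genes does not mean that the call was kept. Levels are given as CPM, which are counts scaled to a common library total, with the TMM factors of edgeR, and 3 counts corresponded to 0.223 to 0.308 CPM before this scaling.

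The 4 type I genes lie next to each other on chromosome 11 of GRCm38 (mm10), all on the minus strand. In the GENCODE annotation Krt25 spans 99315516 to 99322951, Krt26 spans 99328550 to 99337966, Krt27 spans 99345565 to 99351104 and Krt28 spans 99364872 to 99374903, and no other protein-coding gene lies between them. Krt71 (101733949 to 101743109), Krt72 (101776172 to 101786460) and Krt73 (101793308 to 101802346) form a second run on chromosome 15, with Krt75 (101563345 to 101573904) to one side, all on the minus strand. Tchh lies on chromosome 3 (93442330 to 93449077, plus strand) and Padi3 on chromosome 4 (140785365 to 140810648, minus strand).

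The RefSeq start sites (GRCm38.p6) were matched for all 10 genes. The 120 bases before the start site are shown for the 4 neighbouring type I genes, because they are adjacent and 2 of them were called higher in HF + AD, and for Krt71 and Padi3, whose transcripts were higher in HF + AD. They lie at chr11:99322952-99323071, chr11:99337966-99338085, chr11:99351119-99351238, chr11:99374904-99375023, chr15:101743098-101743217 and chr4:140810649-140810768, and each is read 5′ to 3′ on the minus strand. Capitals mark TATAAA, the TATA box letters.
Krt25: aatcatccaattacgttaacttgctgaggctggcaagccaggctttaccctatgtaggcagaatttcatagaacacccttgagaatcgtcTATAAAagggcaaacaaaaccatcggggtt
Krt26: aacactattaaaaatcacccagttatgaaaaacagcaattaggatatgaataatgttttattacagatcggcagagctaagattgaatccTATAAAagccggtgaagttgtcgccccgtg
Krt27: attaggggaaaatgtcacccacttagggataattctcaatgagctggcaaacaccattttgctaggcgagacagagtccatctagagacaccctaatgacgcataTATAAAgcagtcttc
Krt28: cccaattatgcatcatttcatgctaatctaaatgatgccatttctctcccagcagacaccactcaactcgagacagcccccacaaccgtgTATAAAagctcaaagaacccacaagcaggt
Krt71: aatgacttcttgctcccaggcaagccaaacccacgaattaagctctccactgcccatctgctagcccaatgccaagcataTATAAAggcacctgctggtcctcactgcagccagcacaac
Padi3: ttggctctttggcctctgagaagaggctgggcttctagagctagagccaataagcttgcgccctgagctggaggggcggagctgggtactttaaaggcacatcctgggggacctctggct

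TATAAA began 30 bases before the start site in Krt25, Krt26, Krt28 and Krt73, 15 bases before it in Krt27 and 40 bases before it in Krt71. The RefSeq start sites of Krt27, Krt71 and Krt73 differ from the upper GENCODE coordinates given above, so their distances depend on the annotation. Over 250 bases before the start site and both strands it was found in 7 of the 10 genes (in Krt72 on the opposite strand alone) and in 12.4% of 32851 promoters. The GATA letters AGATAA were found in 5 of the 10, namely Tchh, Krt25, Krt27, Krt71 and Krt73, and in 9.99% of all promoters, all farther from the start than the bases shown. CTTTGTT, the letters bound by LEF1 and TCF factors, was found in 1 of the 10 against 5.03% of all promoters, and TGANTCA, those of AP-1, in none of the 10 against 6.75%. Krt27, which was called higher, and Krt28, which was not, both hold TATAAA, and Padi3, which was called higher, holds none in this window. These are matches of letters, and no binding was measured.

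Of the 10 genes, 4 were higher in HF + AD than in AD (Krt26, Krt27, Krt71 and Padi3, 1.67-fold to 1.94-fold) and none was lower in edgeR's quasi-likelihood test at a Benjamini-Hochberg adjusted p of 0.05. Among all 14163 genes tested, 4.43% were called higher and 4.77% lower, 9.2% in all. Of these calls 48.1% were higher, against 35.2% with a correction for GC content and 58.9% with scaling to library totals alone. The median log2 fold change of the 10 genes was 0.63 and that of all genes tested was 0.02, and 8 of the 10 lay above 0. In bulk skin, a change in the number of cells of a type and a change in RNA per cell cannot be told apart. Keratin genes resemble each other, and how reads shared between such genes were counted is not given in the sources used here, so the division of counts between neighbouring keratins is uncertain.

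**Figure D1:**
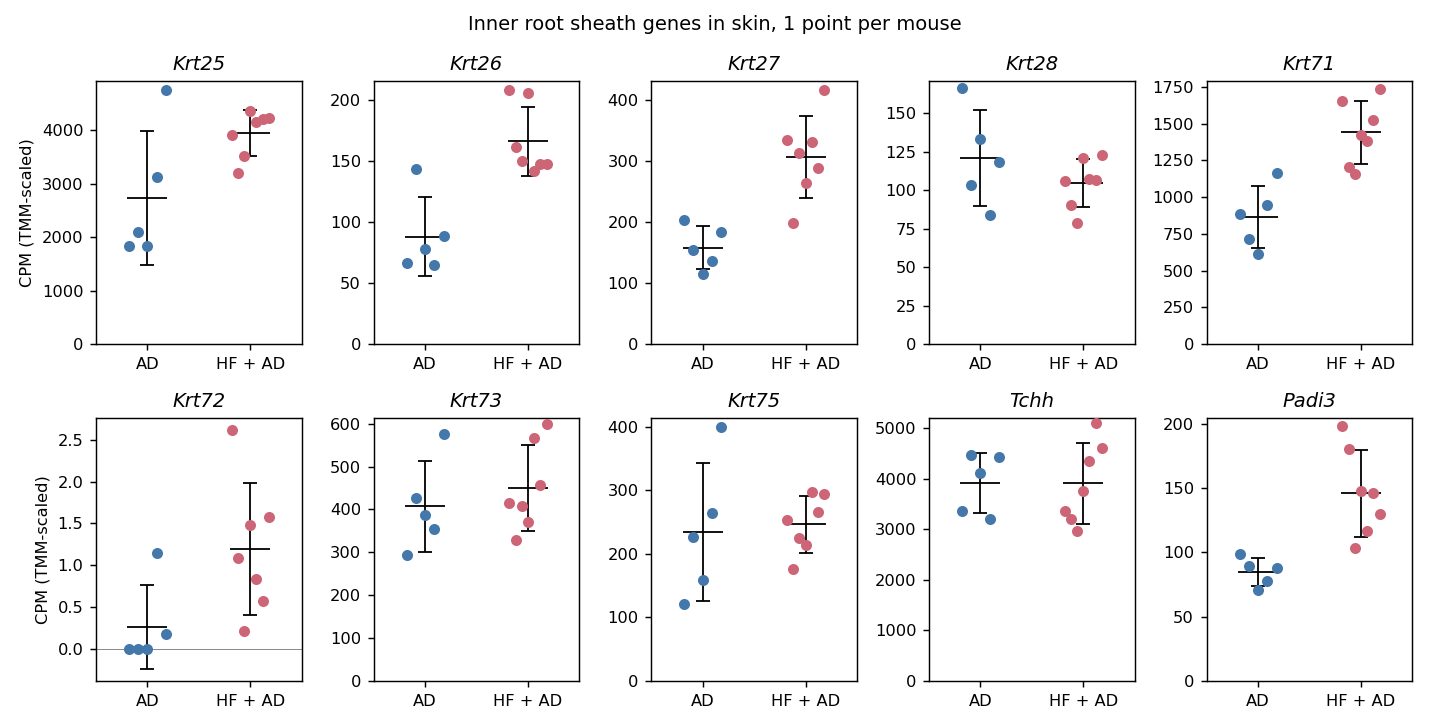
Level of each of the 10 genes in each library, as CPM on a linear axis, with a point per library and the mean and SD of each group (5 AD, 7 HF + AD). The groups do not overlap for Padi3 alone, 6 of 7 HF + AD libraries lie above every AD library for Krt26, Krt27 and Krt71, and the groups interleave for Tchh, Krt73, Krt75 and Krt28. In the title, mouse stands for library.

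Among the type I keratins, Krt27, which is found in all layers of the sheath, gave the largest difference that passed the test. Its level in AD 1 to AD 5 was 204, 154, 115, 137 and 184 CPM, and in HF + AD it ran from 199 to 417 CPM with a median of 314. All but 1 HF + AD library exceeded the highest AD library. This gave a log2 fold change of 0.95 ± 0.18 (SE; 1.94-fold, edgeR adjusted p = 0.00679), and Krt27 stayed past the threshold in all 22 other settings tried, at log2 fold changes of 0.77 to 1.08.

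Krt26, a keratin of the sheath cuticle, was measured at 66.5, 144, 78.2, 64.6 and 88.6 CPM in AD 1 to AD 5. In HF + AD it ran from 142 to 208 CPM with a median of 150.3. AD 2 alone reached the HF + AD range. Its log2 fold change was 0.91 ± 0.19 (SE; 1.88-fold, edgeR adjusted p = 0.0109).

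Krt25, another keratin of all sheath layers, was measured at 1832, 2100.1, 1831, 3121 and 4755 CPM in AD 1 to AD 5 and at 3204 to 4365 CPM in HF + AD, with a median of 4145. AD 5 exceeded every HF + AD library, while AD 1 to AD 4 lay below all 7. The log2 fold change of 0.53 ± 0.21 (SE) missed the threshold (edgeR adjusted p = 0.117). Without AD 5 it was 0.84 (edgeR adjusted p = 0.00978), and without AD 1 and AD 2 it was 0.28 (edgeR adjusted p = 0.448). The difference of mean log2 levels, 0.63, had p = 0.0278 in a two-sided exact permutation test, and leaving out each library in turn moved this p from 0.00303 to 0.0636, with values above 0.05 without AD 1, AD 2, AD 3, HF + AD 1, HF + AD 4, HF + AD 6 or HF + AD 7. On ranks in place of levels the exact permutation p was 0.106. The coefficient of variation was 45.9% in AD and 10.8% in HF + AD.

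Krt28, also a keratin of all sheath layers and the neighbour of Krt27, was measured at 167, 103, 133, 84.05 and 118 CPM in AD 1 to AD 5 and at 78.5 to 123 CPM in HF + AD (median 107). The groups overlapped over most of their range. HF + AD against AD gave a log2 fold change of -0.21 ± 0.17 (SE, edgeR adjusted p = 0.469). The ratio of Krt27 to Krt28 within a library, which does not depend on the scaling of the libraries, was 1.22, 1.49, 0.859, 1.63 and 1.55 in AD and 2.19 to 4.00 in HF + AD, with means of 1.35 ± 0.31 (SD, n = 5) and 2.97 ± 0.65 (SD, n = 7). The 2 groups did not overlap in this ratio. The pair was picked after the levels were seen, so no test is given.

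Of the type II keratins, Krt71, which is made in all layers of the sheath and whose variants give wavy or curly coats, was measured at 883, 719, 614, 945 and 1164 CPM in AD 1 to AD 5. In HF + AD it ran from 1159 to 1734 CPM (median 1424). AD 5 alone reached into the HF + AD range. Its log2 fold change was 0.74 ± 0.16 (SE; 1.67-fold, edgeR adjusted p = 0.0120), and 0.67 without AD 1 and AD 2 (edgeR adjusted p = 0.0529).

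Krt73, a keratin of the sheath cuticle, was measured at 294, 426, 386, 354 and 577 CPM in AD 1 to AD 5 and at 328 to 599 CPM in HF + AD (median 415). The groups interleaved. A log2 fold change of 0.14 ± 0.18 (SE) did not pass the test (edgeR adjusted p = 0.678). Whether Krt71 and Krt73 differed in their response was not tested. Krt71 over Krt73 was 1.59 to 3.01 in AD and 2.44 to 3.99 in HF + AD, with overlap.

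Krt72, another cuticle keratin, was close to the detection limit. AD 1, AD 2 and AD 3 had no count, AD 4 had 13 and AD 5 had 2, and the HF + AD libraries had 3 to 34 counts (0.217 to 2.62 CPM, median 1.08). The log2 fold change of 2.11 ± 1.17 (SE) did not pass the test (edgeR adjusted p = 0.284). On log2(CPM + 1) the means were 0.27 ± 0.48 (SD, n = 5) and 1.06 ± 0.51 (SD, n = 7; two-sided exact permutation p = 0.0253), and p rose above 0.05 without AD 1, AD 2 or AD 3 (0.0576 each) or without AD 5 (0.0545). With counts this low, a difference was not resolved at this depth.

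Krt75, the companion layer keratin, was measured at 121, 226, 159, 265 and 400.4 CPM in AD 1 to AD 5 and at 176 to 298 CPM in HF + AD (median 253). AD 5 was the highest and AD 1 the lowest of all 12 libraries. Between the groups the log2 fold change was 0.07 ± 0.23 (SE, edgeR adjusted p = 0.884). An exon of Krt75 overlaps Gm44460 on the opposite strand, and whether the counting used strand is not given in the sources used here.

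Tchh, the matrix protein, was measured at 3367, 4472, 4119, 3210.3 and 4425 CPM in AD 1 to AD 5 and at 2969.8 to 5099.6 CPM in HF + AD (median 3761). The highest and the lowest library were both HF + AD. The log2 fold change was 0.00 ± 0.15 (SE, edgeR adjusted p = 0.990), and the means of log2(CPM + 1) were 11.92 ± 0.22 (SD, n = 5) and 11.91 ± 0.29 (SD, n = 7).

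Padi3, the enzyme that acts on trichohyalin, was measured at 99.2, 89.1, 70.6, 77.9 and 88.0 CPM in AD 1 to AD 5 and at 103 to 198 CPM in HF + AD (median 146). Every HF + AD library exceeded every AD library. Padi3 was the 1 of the 10 genes whose groups did not overlap, against 5.46% of all genes tested, of which 2.9% had HF + AD higher and 2.56% had HF + AD lower. The log2 fold change was 0.78 ± 0.17 (SE; 1.72-fold, edgeR adjusted p = 0.0109).

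**Figure D2:**
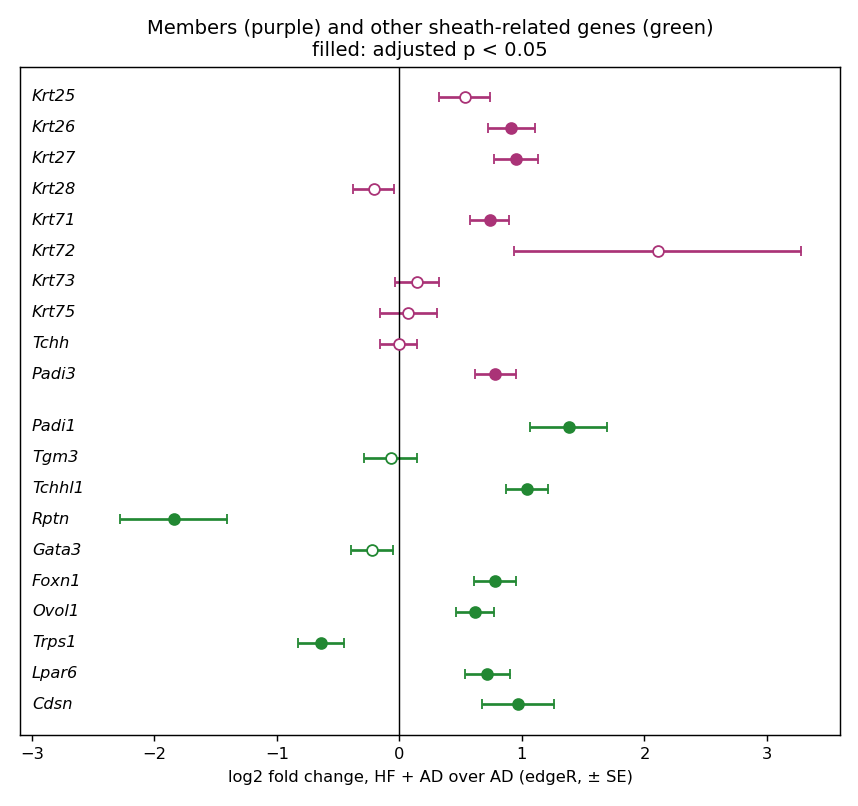
Log2 fold change (HF + AD against AD) with its standard error for the 10 genes and for the other sheath-related genes named here, with filled points for genes past an adjusted p of 0.05 in edgeR's quasi-likelihood test. Krt26, Krt27, Krt71 and Padi3 lie between 0.74 and 0.95, while Tchh lies at 0.00 and Krt28 at -0.21. Crnn, which had no count in AD, is not drawn.

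The 10 genes together made up 7032 to 11801 CPM in AD (median 8259) and 8752 to 12284 CPM in HF + AD (median 10876), with overlap. Tchh and Krt25 accounted for 73.9% to 79.3% of this sum in AD and 69.6% to 76.0% in HF + AD. The kit reads near the 3′ end of each transcript, so counts were not divided by transcript length. Tchh alone made up 47.9%, 53.0%, 54.9%, 38.9% and 37.5% in AD 1 to AD 5 and 32.1% to 41.6% in HF + AD. AD 1, AD 2 and AD 3 were thus above every HF + AD library in the Tchh share, and AD 4 and AD 5 were within the HF + AD range. The ratio of Krt25 to Tchh divided the AD libraries in the same way, at 0.544, 0.470, 0.444, 0.972 and 1.07, against 0.825 to 1.19 in HF + AD. AD 4 and AD 5 also had the most detected genes of the AD group (14874 and 15063, against 13258, 13100 and 14218 in AD 1 to AD 3). The part of detected genes in this division was not tested.

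**Figure D3:**
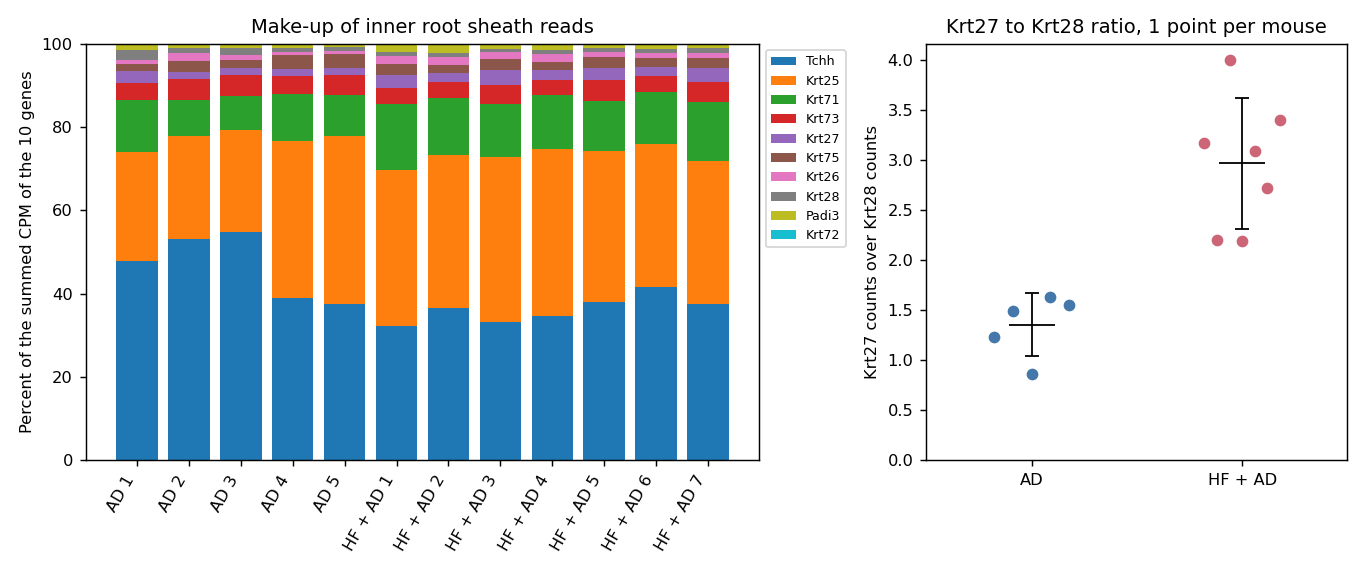
Share of each gene in the summed CPM of the 10 genes by library (left, percent), and the ratio of Krt27 to Krt28 counts by library (right, points are libraries). Tchh takes 47.9% to 54.9% in AD 1 to AD 3 and 32.1% to 41.6% in the HF + AD libraries, and the ratio runs from 0.859 to 1.63 in AD and from 2.19 to 4.00 in HF + AD. In the title of the right panel, mouse stands for library.

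To see which of the genes varied together from library to library, each gene's deviations from its group mean on the log2 scale were correlated over the 12 libraries, with Krt72 left out for its low counts. Of the 36 pairs, 25 had a Pearson r above 0 and 7 had an r above 0.5, and the median was 0.246. The highest values were 0.889 for Krt25 and Krt75, 0.832 for Krt73 and Krt75, 0.776 for Krt25 and Krt71 and 0.710 for Krt73 and Tchh. Krt26 reached 0.371 at most, with Padi3, and the lowest r of Padi3 was -0.359, with Krt73. The highest pair thus joined genes of different layers and chromosomes. The 6 pairs among Krt25 to Krt28 ran from -0.186 (Krt25 and Krt28) to 0.394 (Krt27 and Krt28). All genes of a library share its depth and its RNA, and with 12 libraries these values are a description.

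**Figure D4:**
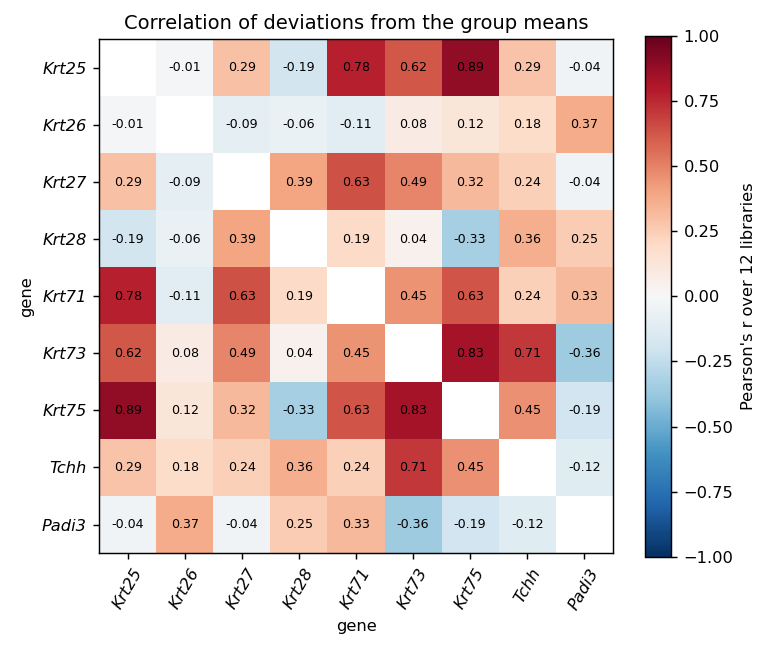
Pearson r between the within-group deviations of 9 of the 10 genes (log2 scale, 12 libraries), with rows and columns as genes and colour from -1 to 1. The highest values are those of Krt25 and Krt75 (0.889), Krt73 and Krt75 (0.832), Krt25 and Krt71 (0.776) and Krt73 and Tchh (0.710), and Krt26 and Padi3 have low values with most of the others.

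Other sheath-related genes were taken from a list of 36, of which 35 were present and 33 were tested. The list is not limited to the sheath, since it holds Rptn, of the cornified envelope, and Krt79, also on the sebocyte list. Of the 33 tested genes, 7 were higher in HF + AD and 2 were lower, Rptn among them. The 7 include Crnn, which passed the count filter through HF + AD alone, so its call is not taken as support. Counts of higher genes in other settings also include Crnn wherever it passed. The other 24 did not pass the test. The median log2 fold change was 0.43, which is the same with Crnn set to its lower bound. The count of higher genes was 4 without HF + AD 2, and the count of lower genes was 1 without AD 2, AD 3, HF + AD 1, HF + AD 2, HF + AD 3, HF + AD 4 or HF + AD 7. Without AD 1 and AD 2 together the counts were 4 and 0.

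Among 7 cross-linking genes 1 was higher and the median log2 fold change was 1.02. This median is the value of Tgm1, which had a mean of 83.2 counts and did not pass the test (1.02 ± 0.68, edgeR adjusted p = 0.384). Padi1, a deiminase of the same cluster of enzymes as Padi3, was 15.8 to 69.3 CPM in AD and 63.0 to 118 CPM in HF + AD (log2 fold change 1.38 ± 0.31, edgeR adjusted p = 0.0145), and without AD 1 and AD 2 its adjusted p was 0.0530. Tgm3, the transglutaminase that cross-links trichohyalin, was 139 to 244 CPM in AD and 91.2 to 241 CPM in HF + AD, with a log2 fold change of -0.07 ± 0.21 (edgeR adjusted p = 0.874).

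The 5 tested relatives of trichohyalin, the fused S100 proteins, did not move one way. Tchhl1 was higher and Rptn was lower, and Crnn, also called higher, is set apart below. Tchhl1, trichohyalin-like 1, ran from 83.7 to 143 CPM in AD and from 186 to 311 CPM in HF + AD without overlap (log2 fold change 1.04 ± 0.17, edgeR adjusted p = 0.00459). Rptn, repetin of the cornified envelope, was lower, at 65.1 to 581 CPM in AD and 23.8 to 113 CPM in HF + AD (log2 fold change -1.84 ± 0.43, edgeR adjusted p = 0.0167), at -1.14 without AD 1 alone (adjusted p = 0.0475) and with an adjusted p of 0.0850 without AD 1 and AD 2. Crnn, cornulin, had no count in the 5 AD libraries and 4 to 33 counts in HF + AD. Its HF + AD mean is at least 4.98-fold higher when each AD library is set to the floor of 3 counts. Crnn passed the count filter through HF + AD alone, so its edgeR adjusted p of 0.0134 is not taken as support. With the replicate number as a block the edgeR adjusted p was 0.164.

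Of the 3 other keratins on the list only Krt79 was tested and it was not called (log2 fold change -0.19). Krt74, annotated in the mouse as a pseudogene, had no count in AD and 2 to 24 counts in HF + AD, at least 2.91-fold higher against the same floor, and was too low to be tested.

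Of 10 transcription factors on the list 2 were higher and 1 was lower. Foxn1, which drives hair keratin genes, gave a log2 fold change of 0.78 ± 0.17 (edgeR adjusted p = 0.0132, and 0.0529 without AD 1 and AD 2). Ovol1 gave 0.62 ± 0.16 (edgeR adjusted p = 0.0232) with no overlap between the groups, though not without AD 2 (0.0607) or without AD 1 and AD 2 (0.110). Trps1 gave -0.64 ± 0.19 (edgeR adjusted p = 0.0393), and this call was lost without AD 2, AD 3, HF + AD 1, HF + AD 2, HF + AD 3, HF + AD 4 or HF + AD 7 (adjusted p up to 0.105), and without AD 1 and AD 2 together (-0.63, adjusted p = 0.0832). Gata3, a factor required for the sheath lineage, was 752 to 1386 CPM in AD and 593 to 1090.4 CPM in HF + AD, with a log2 fold change of -0.23 ± 0.17 (edgeR adjusted p = 0.451).

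Of 10 genes whose variants change hair shape or growth 2 were higher and none was lower. Lpar6, a lysophosphatidic acid receptor, gave a log2 fold change of 0.72 ± 0.18 (edgeR adjusted p = 0.0242, lost without AD 2, AD 3 or HF + AD 2, up to 0.0575, and 0.0924 at a log2 fold change of 0.58 without AD 1 and AD 2). Cdsn, corneodesmosin, gave 0.97 ± 0.30 (edgeR adjusted p = 0.0497) and lost its call without any one of 9 of the 12 libraries (AD 2, AD 3, AD 4 and HF + AD 1, 2, 4, 5, 6 and 7), with adjusted p up to 0.110.

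Markers of the other skin cell types were compared beside these results. Of 14 tested hair shaft genes 5 were higher (Krt31, Krt34, Krt39, Krt84 and Krt86) and none was lower, and their summed level was 2934 to 5829 CPM in AD and 4362 to 7161 CPM in HF + AD. Krt31 ran from 338 to 606 CPM in AD and from 650.0 to 1239 CPM in HF + AD (log2 fold change 1.14 ± 0.18, edgeR adjusted p = 0.00459), while Krt35 (0.48, adjusted p = 0.149) and Krt81 (0.52, adjusted p = 0.109) did not pass edgeR's test, except Krt81 without AD 5 (adjusted p = 0.0495).

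Of 8 bulge genes 2 were higher and none lower (summed 903 to 1260 CPM in AD, 1341 to 2213 CPM in HF + AD), among them Sox9, a stem cell and outer sheath factor, at 1.18 ± 0.21 (edgeR adjusted p = 0.00662). Of the 8, 4 lay below 0 (Cd34 at -0.38, Lgr5 at -0.27, Lhx2 at -0.15 and Lgr6 at -0.89), and the median was -0.03. Of 6 outer root sheath genes 2 were higher and none lower (9477 to 23880.4 CPM and 12343 to 27457 CPM). These were Krt5 (0.81, edgeR adjusted p = 0.00679) and Krt14 (1.05, edgeR adjusted p = 0.0248), and Krt6a was not among them (0.25, edgeR adjusted p = 0.619). Keratins of this list are also those of the stressed or basal epidermis. Of 7 dermal papilla genes 1 was higher and 1 lower (247 to 411 CPM and 163 to 328 CPM). These were Inhba (2.40, edgeR adjusted p = 0.00753) and Hhip (-1.60, edgeR adjusted p = 0.0132). Sostdc1 did not pass (-0.66, edgeR adjusted p = 0.113) except without HF + AD 6 (0.0317). Of 10 cycling genes none was higher and 3 were lower (1255 to 1802 CPM and 994 to 1367 CPM), with Top2a at -0.65 ± 0.18 (edgeR adjusted p = 0.0316, lost without AD 2, AD 3, AD 4, HF + AD 1, HF + AD 2, HF + AD 4 or HF + AD 7, up to 0.0886, and 0.0648 without AD 1 and AD 2).

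Sebocyte genes were 1 higher and 1 lower of 8 (2834 to 4638 CPM and 2131 to 3301 CPM), with Scd1 at -0.74 ± 0.16 (edgeR adjusted p = 0.0126) and Awat1 at 0.93 ± 0.22 (edgeR adjusted p = 0.0179). Melanocyte genes were 0 higher and 2 lower of 6 (1836 to 2858 CPM and 928 to 1990.0 CPM), with Dct at -0.68 ± 0.16 (edgeR adjusted p = 0.0177). Muscle genes were 0 higher and 2 lower of 10 (1475 to 3348 CPM and 856 to 2089 CPM), with Acta1 at -0.72 ± 0.22 (edgeR adjusted p = 0.0481, lost without any one of AD 1, AD 2, AD 4, AD 5, HF + AD 2, HF + AD 3, HF + AD 4, HF + AD 5 or HF + AD 7, up to 0.113, and 0.125 without AD 1 and AD 2).

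In 4 further lists no gene passed in either direction, namely epidermis (8 genes, 700.3 to 2848 CPM in AD and 757 to 1944 CPM in HF + AD), adipocytes (6 genes, 104 to 718 CPM and 98.0 to 564 CPM), fibroblasts (6 genes, 3283 to 9883 CPM and 3292 to 10275 CPM) and leukocytes (8 genes, 141 to 401 CPM and 196 to 514 CPM). Their most counted genes gave log2 fold changes of 0.17 (Krtdap), -0.21 (Fabp4), -0.45 (Col1a1) and -0.06 (Cd74), and Krtdap passed without AD 1 alone (1.03, edgeR adjusted p = 0.0214). The medians of these lists were -0.17 for epidermis (3 of 8 genes above 0), -0.05 for adipocytes (3 of 6), 0.28 for fibroblasts (5 of 6, all but Col1a1) and 0.73 for leukocytes (7 of 8, all but Cd74), so that the most counted gene of the epidermis, fibroblast and leukocyte lists lay on the other side of 0 from its list. No gene of any list was at 0 in all 12 libraries, and the part of these tissue markers in the sheath results was not tested.

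Transcript GC content moved with the calls over all genes. With genes split into 5 equal classes by GC content, 72 of the lowest class were higher and 206 lower, and of the highest class 187 were higher and 57 lower. Transcripts of the 10 sheath genes held 48.2% (Krt26) to 56.8% (Krt72) GC. All but Krt26 lay above 52.1%, in classes 4 and 5 counted from the lowest GC content. Over all genes of these classes the median log2 fold changes were 0.09 and 0.18, and 152 and 187 of 2725 genes were called higher. With a correction for GC content, chosen after the data were seen, the log2 fold changes were 0.93 for Krt26, 0.77 for Krt27, 0.50 for Krt71 and 0.51 for Padi3, all still past the threshold (edgeR adjusted p = 0.0102, 0.0148, 0.0306 and 0.040). Foxn1, Ovol1 and Cdsn no longer passed under it (edgeR adjusted p = 0.0531, 0.0587 and 0.0931), and with voom sample weights Lpar6, Ovol1, Rptn and Trps1 did not pass (limma adjusted p = 0.0631, 0.0558, 0.101 and 0.114).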

How the data were processed

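Skin RNA was extracted with TRIzol, libraries were made with the Lexogen QuantSeq 3′ kit and sequenced on a NextSeq 500. The authors deposited whole-number read counts per gene for each library, and their processing notes name Bowtie2, bedtools and mm10. Multi-mapping and strand settings are not given in the sources used here.

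Counts were filtered with filterByExpr, normalized with TMM and tested with edgeR 4.0.16 (glmQLFTest, Benjamini-Hochberg over 14163 genes) in R 4.3.3, on all 12 libraries with group as the one term. Log2 levels are log2(CPM + 1). Single levels were compared with two-sided exact permutation tests over 792 splits, of which the smallest possible p is 0.00126. DESeq2 1.42.0 and limma 3.58.1 were alternatives, with other filters, scalings, omitted libraries and GC correction. The labels do not say that each library is a separate mouse, and p-values measure only the spread between libraries. No 2 libraries held identical values.

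The rule for the 10 genes uses no measured value, but it and all lists were drawn up with earlier results of these data known. Named are the 10 genes, sheath-related genes with adjusted p under 0.05, Gata3, Tgm3, Krt74, the 3 hair shaft genes and the 1 gene of each other list with the highest mean count, and the 10 genes most like the sheath profile. Some further list genes are named beside the counts of their lists. Promoter letters were counted in 250 bases.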

Additional observations from a re-analysis of the deposited data

Results flagged for a closer look

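Krt72 in AD 4 stood apart from the other AD libraries. Its level was 1.10 on the log2(CPM + 1) scale (13 counts), against 0 to 0.24 in the other 4, and its gap to the nearest library was 0.783 of the group's range, above Dixon's 95% critical value of 0.71 for 5 samples. This was 1 of 20 groups examined, and chance alone flags about 1 in 20.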

How the results depend on the processing

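Krt26, Krt27, Krt71 and Padi3 were called higher in every setting except as follows. Without AD replicates 1 and 2, chosen after the data were seen, Krt71 was lost, 366 genes were lower, and 4 sheath-related genes were higher and 0 lower. With the replicate number as a block, 100 genes were higher and 92 lower, the called members fell to 2 (Krt27 and Padi3; Krt26 was at 1.02 with adjusted p = 0.0533 and Krt71 at 0.68 with adjusted p = 0.0514), and sheath-related genes to 1 higher and 0 lower. The labels do not say what the replicate number marks. Deviations of same-numbered libraries correlated at -0.131 to 0.111 in 5 pairs, and 1 of 5 AD libraries correlated best with its own number. These correlations cannot show whether same-numbered libraries share a cage, litter or day, and this was not tested.

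Over all genes, DESeq2's Wald test gave 988 higher, and limma voom with sample weights gave 329 higher and 437 lower, with 0 sheath-related genes lower. Library totals alone gave 1 sheath-related gene lower, and the GC correction 4 higher. Leaving out each library in turn gave 308 to 775 genes higher, 331 to 766 lower, 4 to 5 members higher, and 4 to 8 sheath-related genes higher with 1 to 2 lower. The fewest came without HF + AD replicate 2 (308 and 331), HF + AD replicate 1 (324 and 362) and HF + AD replicate 4 (391 and 403), and 371 were lower without AD replicate 2. Without AD 1 and AD 2 58.4% of calls were higher.

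Directions turned for genes that were not called. Tchh went to 0.039 with library totals (0.028 as a difference of levels), 0.0040 without a filter, 0.0047 with at least 10 counts and 0.038 with voom. Krt75 went to -0.063 with voom, -0.064 with the GC correction and -0.16 without AD 1 and AD 2, and Krt73 to -0.0010 with the GC correction. Fabp4 went to 0.018 with limma-trend, 0.51 with voom, 0.028 with the block and 1.19 without AD 1 and AD 2, and Cd74 to 0.20 with voom and 0.51 without AD 1 and AD 2. Leaving out each library gave Tchh -0.080 to 0.058 (levels -0.085 to 0.045), Krt75 -0.090 to 0.37 (levels -0.033 to 0.40), Cd74 -0.28 to 0.32, Fabp4 -0.46 to 0.52, Krtdap -0.033 to 1.03 and Tgm3 -0.18 to 0.078. The cause of these changes was not tested. With at least 10 counts in every library Krt72 and Crnn gave no value. Depth limits Krt72, Krt74 and Crnn, whose counts lie near the floor of 3.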

Other observations

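Genes outside the list were compared with the sheath profile over the 12 libraries. This profile is the mean of the standardized within-group deviations of all 10 members, Krt72 with its low counts included. Of 11321 genes with a mean of at least 5 CPM, those most like it by Pearson r were Ube2r2 (0.917), Scnn1b (0.875), Krtap4-9 (0.865), Lrrc20 (0.848), Eid3 (0.807), Evpl (0.802), Mea1 (0.802), Slc35f6 (0.801), Krtap4-16 (0.798) and Zfp646 (0.794). Krtap4-9 and Krtap4-16 encode keratin-associated proteins of the hair shaft, and Evpl encodes envoplakin of the cornified envelope. Ube2r2 was also higher in HF + AD, at a log2 fold change of 0.38 ± 0.11 (SE, edgeR adjusted p = 0.0423). Krtap4-16 was higher too, at a log2 fold change of 1.38 ± 0.23 (SE, edgeR adjusted p = 0.00492), and the other 8 did not pass the test, among them Krtap4-9 at 1.45 ± 0.45 (edgeR adjusted p = 0.0511) and Evpl at 0.30 ± 0.16 (edgeR adjusted p = 0.249). The 10 values are the highest of many and are given as a description.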
